A study of Mus musculus with 18 samples.

Results

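The data below concern 37 genes that are commonly counted as type I interferon-stimulated genes, followed in mouse splenic B cells. They were chosen as a named gene module, matched by symbol, and all 37 were found among the 16545 genes of the expression table. Transcript levels were measured by RNA sequencing in 18 libraries that form 6 groups of 3, and are given as FPKM, the fragments of a gene scaled to its transcript length and to the size of the library. The groups are total splenic B cells of control mice and of mice with a B cell specific deletion of Zbtb24 (B-CKO), taken before culture (0 h) and after 24 h and 48 h with lipopolysaccharide (LPS), a bacterial cell wall component that is sensed by Toll-like receptor 4. B-CKO mice were Zbtb24 loxp/loxp on a C57BL/6 background: loxP sites flank exon 2 of Zbtb24, and a Cre active in B lineage cells removes it. The labels name the other genotype only as control, and the methods name littermates that carry Cre with intact Zbtb24 as controls wherever nothing else is stated. There were 3 mice per genotype. No culture without LPS was among the samples, so LPS and time in culture cannot be told apart, and the LPS dose of these cultures and the age of the mice are not given in the sources used here.

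Type I interferons bind the receptor formed by Ifnar1 and Ifnar2, which signals through the kinases Jak1 and Tyk2. These phosphorylate STAT proteins, among them Stat2, which form with Irf9 a complex that binds the interferon-stimulated response element (ISRE) in the promoters of target genes. The targets include sensors of viral RNA and DNA, enzymes that block viral translation or replication, and negative regulators such as Usp18 and Socs1. In B cells, Toll-like receptor ligands can raise the same genes, and Irf7, itself a target, is needed for much of the interferon-alpha response.

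Promoters are shown for those of the most strongly rising genes whose windows held the element that defines the family. RefSeq windows on GRCm38.p6, from 250 bases before to 50 bases after a gene's start, were at hand for 27 of the 37 genes. The core of the ISRE was searched on both strands as GAAA, 2 bases of any kind and GAAA again, overlapping matches included. It was present in 12 of these 27 genes (44.4%), and in 13 of their 34 windows (38.2%) against 3.44% of all 32851 windows of the same length. Of the 8 genes with the greatest rise at 24 h described below, 3 held it: Ifit1 at chr19:34640739-34640888 (plus strand), Isg15 at chr4:156200819-156200968 (minus strand) and Ifih1 at chr2:62646206-62646235 (minus strand). For Ifit1 and Isg15 the 150 bases before the start are printed, and for Ifih1 the last 30 bases of the window, which lie after the start. Capitals mark the core on either strand.
Ifit1: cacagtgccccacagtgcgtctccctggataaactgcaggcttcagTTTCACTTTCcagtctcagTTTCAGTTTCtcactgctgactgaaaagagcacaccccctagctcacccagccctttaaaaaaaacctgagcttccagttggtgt
Isg15: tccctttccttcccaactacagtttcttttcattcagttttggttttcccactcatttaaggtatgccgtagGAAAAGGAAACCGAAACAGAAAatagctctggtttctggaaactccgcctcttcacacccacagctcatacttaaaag
Ifih1: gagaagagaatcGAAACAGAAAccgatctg

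The Ifit1 stretch held the core at 2 places, beginning 104 and 85 bases before the start. In Isg15, 3 overlapping cores began 78, 72 and 66 bases before the start and formed a single run. The Ifih1 core began 32 bases after the start. Oasl1, the other gene of the 8 with a window, had none of these letters in it, and Usp18, Rtp4, Ifi27l2a and Dhx58 had no window. The GAS element, bound by Stat dimers and searched as TTCNNNGAA, was in the windows of 8 of the 27 genes, including Irf1, or 23.5% of the windows against 8.3% of all windows. The NF-kB motif, searched as GGG, 2 bases of any kind and TTTCC, was in 0 of the 34 windows against 1.63% of all. A match describes letters in a window and not a bound site.

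Several properties of the libraries bear on the values. The median SD of log2 values between replicates over the 37 genes was 0.19 in control cells before culture, 0.0675 after a day in LPS and 0.0951 at 48 h, so small differences are least resolved before culture. Zbtb24 itself was lower in B-CKO at every time, at 14.3, 10.5 and 12.6 FPKM against 49.6, 49.6 and 37.1 in control at 0 h, and the groups did not overlap at 24 h or 48 h either, with adjusted p of 0.12, 0.0586 and 0.267 at the successive times. The labels give no Cre genotype for the control mice sequenced, and the part of the Cre allele in the genotype comparisons was not tested. The summed level of 6 B cell markers was 3638 to 4843 FPKM at 0 h, against 167 to 222 for 8 T cell markers, 9.10 to 15.0 for 8 macrophage and neutrophil markers and 3.70 to 15.2 for 6 NK cell markers. Cd2, which mouse B cells also express, at 143 to 194 FPKM and Lck at 16.2 to 22.6 made up nearly all of the T cell sum, and Cd3d, Cd3e, Cd3g, Cd4, Cd8a and Cd8b1 each lay between 0.31 and 3.31 FPKM at that time. For plasmacytoid dendritic cells, known for making type I interferon, 7 markers summed to 22.3 to 31.2 FPKM at 0 h and, in control cells, to 26.4 to 27.5 at 24 h, nearly all of it Tcf4. Siglech was at most 0.39 FPKM in any library, and Cox6a2 averaged 0.13, 2.26 and 0.31 FPKM in control cells at 0 h, 24 h and 48 h. Immediate early genes, which cell handling raises, summed to 2955 to 4477 FPKM in control cells at 0 h and to 176 to 182 at 24 h. In control cells the sums of the other marker lists were lower at 24 h, among them 2064 to 2228 FPKM for B cells against 3638 to 4717 at 0 h, 38.5 to 42.7 against 213 to 222 for T cells, 0.52 to 0.57 against 6.11 to 13.0 for NK cells and 8.23 to 11.4 against 15.0 to 37.6 for 6 erythroid genes, of which Hbb-bt went the other way, from a mean of 2.86 to 7.58 FPKM. The macrophage and neutrophil sum was 6.88 to 8.77 FPKM at 24 h against 9.10 to 13.7 at 0 h in control cells. Itgam in that list rose, from a mean of 0.977 to 2.42 FPKM. Prf1 made up most of the NK cell sum at 0 h, with means of 7.75 FPKM in control and 8.04 in B-CKO cells. The part of all these marker and handling genes in the changes from 0 h was not tested.

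In control cells most of the 37 genes rose during the first day in LPS. At 24 h, 29 of the 37 genes were higher than at 0 h and 4 were lower (limma on log2(FPKM + 1), Benjamini-Hochberg adjusted p under 0.05 over all genes tested), while 26.7% of the 15531 genes tested were called higher and 30.7% lower. The median log2 fold change was 1.15 for the 37 genes and -0.02 for all genes. In bulk RNA, a change in the share of cells that express a gene and a change in RNA per cell cannot be told apart. The p-values rest on the spread between the 3 libraries of each group, and not on the spread of changes within a mouse. At 0 h libraries of the same number deviated together across genotypes, so mouse and shared number cannot be told apart in that spread. On the log2(FPKM + 1) scale the 8 greatest rises were those of Ifit1, Isg15, Ifih1, Oasl1, Usp18, Rtp4, Ifi27l2a and Dhx58. These are described first within their roles. By the ratio of means, Ifi44 (5.16) stood above Rtp4 (5.05), Dhx58 (4.49) and Ifi27l2a (4.31), and Oas1a (4.39) above Ifi27l2a.

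**Figure D1:**
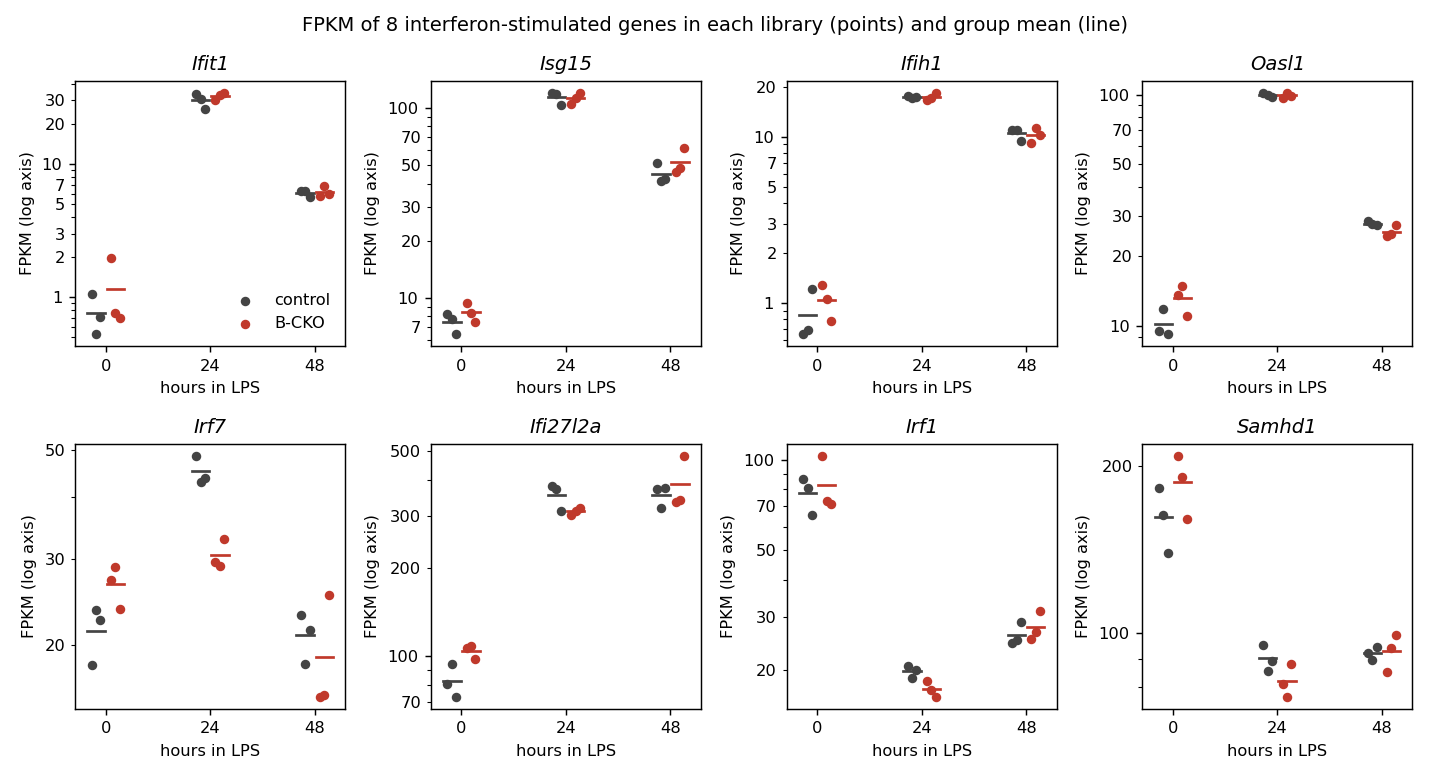
FPKM of 8 of the genes (log axis) against hours in LPS, with control libraries in grey and B-CKO libraries in red, each point 1 library in the order of replicates 1 to 3 and each line a group mean. Ifit1, Isg15, Ifih1 and Oasl1 peaked at 24 h in both genotypes, Ifi27l2a stayed high at 48 h, Irf1 and Samhd1 were highest at 0 h, and the 3 control values of Irf7 at 24 h lay above the 3 B-CKO values.

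Among the IFIT proteins, which bind viral RNA and curb its translation, Ifit1 changed most. It stood at 1.05, 0.53 and 0.71 FPKM in the 3 control libraries at 0 h and at 33.5, 30.9 and 26.1 at 24 h. That is a 39.5-fold higher mean and a log2 fold change of 4.15 ± 0.15 (SE, adjusted p = 7.41e-06), the latter damped by the pseudocount because the starting level was low. Ifit2 was 5.22, 3.34 and 3.48 FPKM at 0 h and 9.50, 9.50 and 8.60 at 24 h. Ifit3 was 5.83, 4.19 and 4.80 FPKM at 0 h and 15.5, 15.2 and 13.9 at 24 h. All 3 IFIT genes rose, and no library at 24 h overlapped one at 0 h. Ifit1 overlaps the gene Ifit1bl1 and Ifit3 has the close copy Ifit3b, so reads may have been divided between copies.

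The nucleic acid sensors and editors rose in 5 of 5 cases. Ifih1, which encodes the cytosolic double-stranded RNA sensor MDA5, was 0.65, 0.69 and 1.21 FPKM at 0 h and 17.6, 17.2 and 17.3 at 24 h, a log2 fold change of 3.32 ± 0.14 (adjusted p = 9.8e-06). Dhx58, the related helicase LGP2, was 11.1, 11.8 and 11.4 FPKM at 0 h and 53.5, 50.5 and 49.9 at 24 h, a log2 fold change of 2.07 ± 0.06 (adjusted p = 5.65e-06). Both RNA helicases were thus near even across the 3 mice at 24 h. Zbp1, a sensor of Z-form nucleic acid that can trigger cell death, went from a mean of 19.9 to 58.6 FPKM. Eif2ak2, the kinase PKR that halts translation on double-stranded RNA, went from 8.83 to 23.8 FPKM. Adar, which edits adenosine to inosine in double-stranded RNA, changed least of the group, from 37.5 to 47.3 FPKM.

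Of the OAS family, whose enzymatic members make the 2′-5′ oligoadenylates that activate RNase L, 4 of 5 genes rose. Oasl1, a member without that enzymatic activity that restrains translation of Irf7 mRNA, was 9.57, 11.9 and 9.25 FPKM at 0 h and 101, 99.7 and 98.0 at 24 h, a log2 fold change of 3.17 ± 0.10 (adjusted p = 5.88e-06). Oas1a was 5.57, 7.14 and 6.12 FPKM at 0 h and 25.9, 29.2 and 27.7 at 24 h. Oas3 went from a mean of 4.18 to 12.8 FPKM and Oasl2 from 2.69 to 7.16. Oas2 did not pass the test, with 4.63, 5.74 and 5.05 FPKM at 0 h and 5.69, 5.61 and 6.77 at 24 h. Mouse Oas1a belongs to a cluster of near-identical genes, and how reads shared among them were assigned is not known in detail.

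Isg15 encodes a ubiquitin-like protein that is attached to other proteins. Its FPKM was 8.24, 7.79 and 6.46 at 0 h and 120, 118 and 104 at 24 h, a log2 fold change of 3.76 ± 0.10 (adjusted p = 5.17e-06). Usp18, the protease that removes Isg15 from its targets and blocks the receptor from within, was 4.48, 3.15 and 1.52 FPKM at 0 h and 25.1, 24.2 and 22.1 at 24 h, a log2 fold change of 2.68 ± 0.28 (adjusted p = 0.000297). The transcripts of Isg15 and of its protease therefore both rose. Socs1, the other feedback inhibitor, did not pass the test, at a mean of 8.70 FPKM at 0 h and 8.40 at 24 h. Trim30a went from 34.9 to 85.9 FPKM. Trim25, a ubiquitin ligase of the RIG-I pathway, was lower at 24 h, at 26.5, 27.4 and 27.8 FPKM against 35.5, 49.2 and 71.9 at 0 h, where the 3 libraries differed widely.

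Of the membrane, nuclear body and other proteins, 6 of 7 rose. Ifi27l2a, a small mitochondrial and nuclear envelope protein, had the highest level of the 37 genes at 24 h per length of transcript. It was 80.4, 94.2 and 72.8 FPKM at 0 h and 381, 373 and 314 at 24 h, a log2 fold change of 2.10 ± 0.12 (adjusted p = 2.67e-05). Rtp4, which acts on RNA virus replication and on receptor trafficking, was 5.72, 5.63 and 6.01 FPKM at 0 h and 31.0, 28.7 and 28.0 at 24 h, a log2 fold change of 2.15 ± 0.07 (adjusted p = 6.49e-06). Bst2, the tetherin that holds budding virus at the cell surface, went from a mean of 24.9 to 100.1 FPKM. Xaf1, Ifi35 and Ifi44 rose as well, Ifi44 from a mean of only 0.213 to 1.10 FPKM. Sp100, a nuclear body protein, was the most abundant of the 37 genes at 0 h, at 165 FPKM, and was 159 at 24 h without passing the test. Ifi27l2a overlaps the gene Ifi27 in the annotation.

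The Mx GTPases, which trap viral nucleocapsids, both rose, Mx1 from a mean of 4.13 to 11.5 FPKM and Mx2 from 3.21 to 6.78. The Mx1 allele of C57BL/6 mice makes no functional protein, so its transcript is a readout here. Of the nucleotide enzymes, Rsad2, the viperin that makes a chain-terminating nucleotide, was 0.89, 1.51 and 2.48 FPKM at 0 h and 5.51, 5.36 and 5.33 at 24 h, and Cmpk2, its neighbour and a nucleotide kinase, rose from a mean of 6.51 to 8.85 FPKM. Samhd1, which depletes deoxynucleotides in resting cells, fell, from 182, 163 and 140 FPKM to 95.4, 85.7 and 89.2. Parp9 and Dtx3l, partners in a ubiquitin ligase complex that lie in overlapping loci, rose from 16.1 to 33.4 FPKM and from 9.73 to 17.8 FPKM. Parp14 did not pass the test, at 19.9 and 20.1 FPKM.

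The transcription factors were the role that divided most. Irf7 was 18.2, 23.5 and 22.5 FPKM at 0 h and 48.6, 43.1 and 43.9 at 24 h, and Irf9 was 43.9, 43.2 and 42.8 FPKM at 0 h and 51.7, 50.9 and 52.6 at 24 h. Both rose. Irf1, which also responds to interferon-gamma, fell from 86.2, 80.5 and 65.5 FPKM to 20.6, 18.9 and 20.0. Stat2 fell from a mean of 32.1 to 23.0 FPKM. The 4 genes that fell were Irf1, Stat2, Trim25 and Samhd1. Without control replicate 2 or control replicate 3 at 24 h, only Irf1 and Samhd1 of them remained called, 2 of 37, and 27 of the 29 rises remained in either case.

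**Figure D2:**
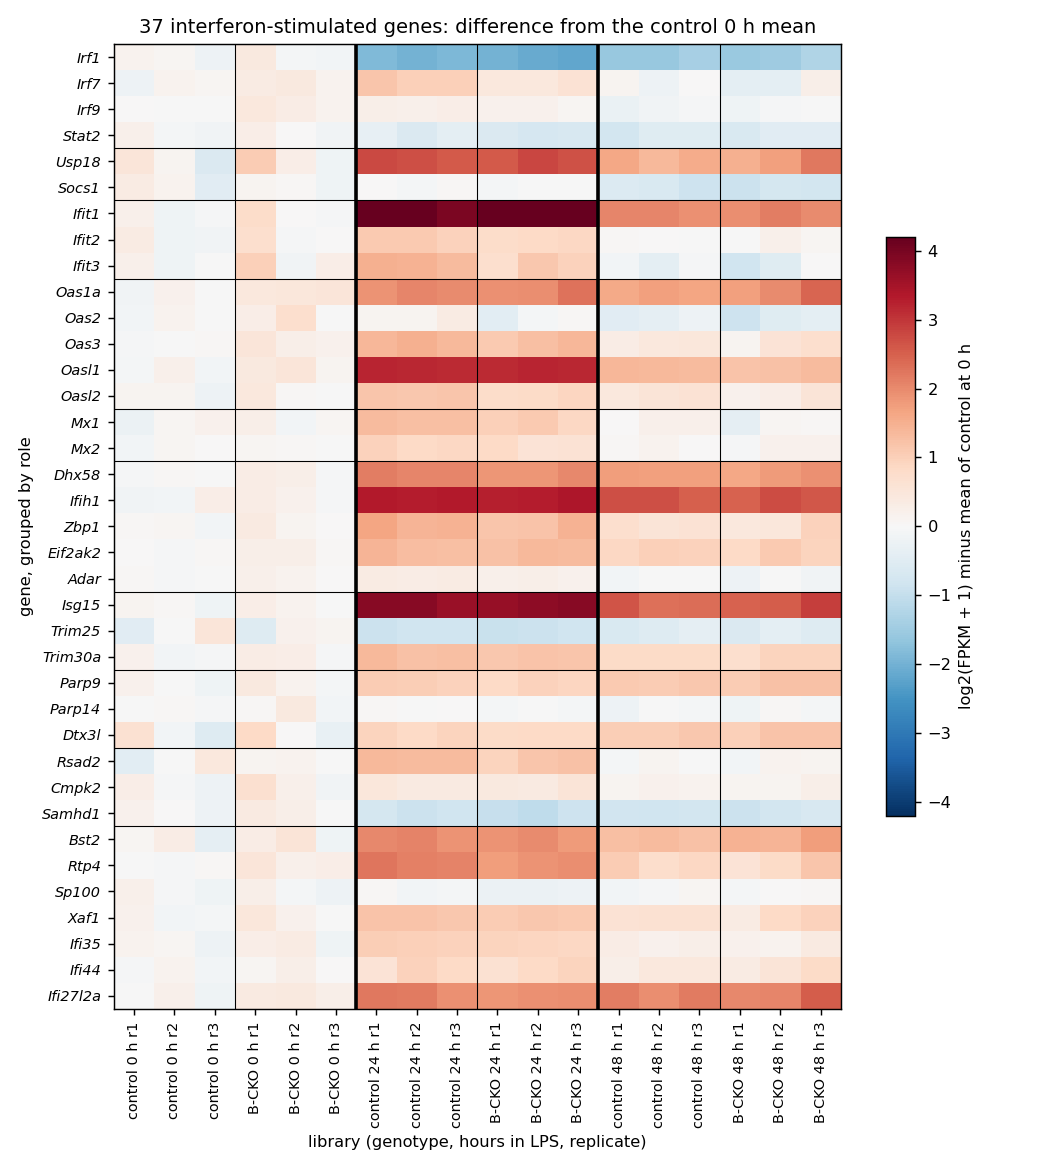
Each row is 1 of the 37 genes, grouped by role, and each column 1 of the 18 libraries. Colour gives log2(FPKM + 1) minus the mean of the 3 control libraries at 0 h. Most rows turn red at 24 h and paler at 48 h in both genotypes, and Irf1, Stat2, Trim25 and Samhd1 turn blue.

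Most of the rise was gone a day later. From 24 h to 48 h in control cells, 28 of the 37 genes fell and 3 rose, while 24.8% of the 15178 genes tested fell and 20.1% rose. The median log2 fold change was -0.56 for the 37 genes and -0.005 for all genes. Of the 29 genes that had risen at 24 h, 21 had lost over 50% of the rise in mean FPKM by 48 h, with a median of 68.1%, and 6 were at or below their 0 h mean again (Irf7, Irf9, Ifit2, Ifit3, Adar and Rsad2). These 29 were selected on the same 24 h libraries, which alone favours a later loss. The 28 of 37 that fell were counted without that selection. Some marker sums of control cells were higher at 48 h than at 24 h. Immediate early genes were at 240 to 251 FPKM against 176 to 182, and T cell markers at 69.5 to 85.2 against 38.5 to 42.7. The higher T cell sum was carried by Cd2, from a mean of 27.1 to 63.4 FPKM. Lck was nearly unchanged, Cd3d, Cd3e, Cd3g, Cd4 and Cd8a had lower means, and Cd8b1 had a higher one. Macrophage and neutrophil markers were at 10.5 to 13.5 FPKM against 6.88 to 8.77, and NK cell markers at 0.98 to 1.42 against 0.52 to 0.57. In the former list Cd68 and Itgam rose, while Adgre1 fell from a mean of 1.75 to 0.773 FPKM. S100a8, S100a9 and Ly6g, all near 0, also had lower means, and Lyz2 and Csf1r higher ones. Of the NK cell markers only Prf1 was higher, from a mean of 0.423 to 1.10 FPKM. Klrb1c, Klrk1 and Eomes had lower means, and Ncr1 and Klra8 were at 0 at both times. The B cell, plasmacytoid and erythroid sums overlapped. The part of these lists was not tested.

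The 8 greatest falls were all in genes that had risen at 24 h, though both changes use the same 24 h libraries. Ifit1 came down to 6.27, 6.30 and 5.67 FPKM, a log2 fold change of -2.13 ± 0.09 (adjusted p = 2.57e-05). Oasl1 came down to 28.4, 27.5 and 27.3 FPKM, a log2 fold change of -1.81 ± 0.03 (adjusted p = 3.11e-06). Ifit3 was 4.41, 3.44 and 4.66 FPKM (-1.62 ± 0.10, adjusted p = 6.49e-05), so that it was no longer above its 0 h range. Rsad2 lay between 1.38 and 1.76 FPKM (-1.33 ± 0.07, adjusted p = 4.52e-05) and Isg15 was 51.4, 41.3 and 42.3 (-1.33 ± 0.09, adjusted p = 9.71e-05). Isg15 thus stayed above every library of 0 h. Rtp4 was 13.2, 10.3 and 11.4 FPKM (-1.26 ± 0.09, adjusted p = 8.94e-05), Usp18 was 10.8, 8.96 and 10.3 (-1.17 ± 0.08, adjusted p = 7.81e-05) and Mx1 was 4.11, 4.85 and 4.96 (-1.15 ± 0.07, adjusted p = 7.21e-05).

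A smaller set held its level. Ifi27l2a was 371, 321 and 374 FPKM at 48 h, all 3 within its 24 h range of 314 to 381, and it did not pass the test. Dhx58 and Oas1a fell but kept most of the rise, with 27.8% and 27.1% of it gone. Parp9 was 35.2, 34.3 and 36.1 FPKM and did not pass the test, while its partner Dtx3l rose further, to 19.6, 19.8 and 21.1. Irf1 and Trim25, which had fallen at 24 h, were the other 2 that rose, Irf1 to 24.7, 25.1 and 28.8 FPKM. In the single fit of all 18 libraries 1 of these 3 rises remained. Socs1, which had not passed the test over the first day, fell to 5.28, 5.06 and 4.16 FPKM.

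In B-CKO cells most of the genes also rose over the first day. At 24 h against 0 h, 23 of the 37 genes were higher and 4 lower, against 27.5% and 32.3% of 15551 genes, and all 23 were among the 29 that rose in control cells. The 4 that fell were the same genes. The median log2 fold change of the 37 genes was 0.74. For the 8 genes named above it was 4.01 for Ifit1, 3.60 for Isg15, 3.18 for Ifih1, 2.83 for Oasl1, 2.29 for Usp18, 1.73 for Dhx58, 1.57 for Ifi27l2a and 1.54 for Rtp4. All 8 passed the test in B-CKO cells, the weakest with an adjusted p of 0.000756 for Usp18. Irf7, Irf9, Ifit3, Adar, Cmpk2 and Dtx3l rose in control cells and did not pass the test in B-CKO cells. Irf7 was 27.2, 28.9 and 23.7 FPKM at 0 h and 29.6, 28.9 and 32.9 at 24 h in B-CKO cells. Each of the 29 genes that rose in control cells had a smaller log2 fold change in B-CKO cells. These 29 were selected on their control change, which alone favours a smaller value in B-CKO cells. No conclusion is drawn from this count. Across the 37 genes the changes in the 2 genotypes, which share no library, had a Pearson r of 0.99, given as a description since genes are not independent replicates. Without B-CKO replicate 1 at 0 h, 26 genes were higher at 24 h rather than 23. Without B-CKO replicate 3 at 0 h, 7 genes were lower at 24 h rather than 4, with Sp100, Irf9 and Oas2 added.

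From 24 h to 48 h in B-CKO cells, 23 genes fell and 5 rose, against 24% and 21.7% of 15253 genes, and the median log2 fold change of the 37 genes was -0.39. The 23 that fell were all among the 28 that fell in control cells. The 5 that rose were Irf1, Trim25, Dtx3l, Parp9 and Sp100, and in the single fit of all 18 libraries 2 of them remained. Log2 fold changes were -2.22 for Ifit1, -1.91 for Oasl1, -1.38 for Ifit3, -1.11 for Isg15, -1.08 for Rsad2, -1.06 for Mx1, -1.02 for Rtp4 and -0.88 for Usp18, and all 8 passed the test.

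**Figure D3:**
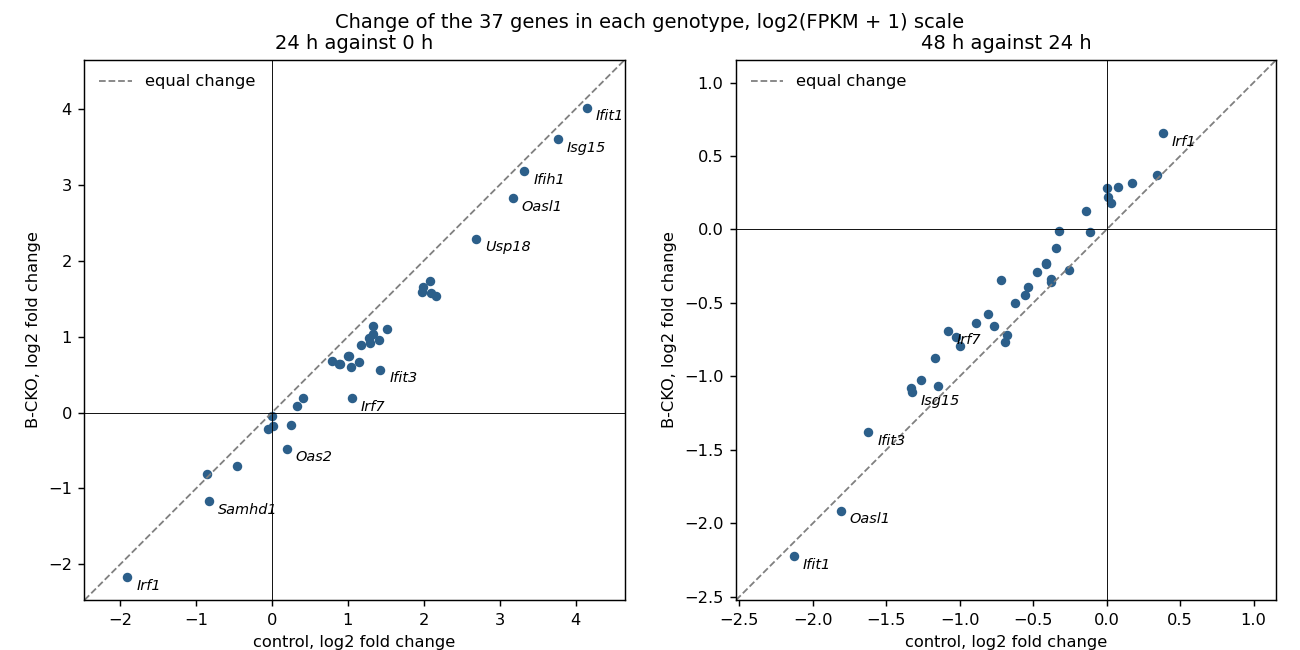
Log2 fold change of each of the 37 genes in control cells (horizontal) and in B-CKO cells (vertical), for 24 h against 0 h and for 48 h against 24 h, on the log2(FPKM + 1) scale. The dashed line marks equal change. At 24 h nearly every point lies just under the line, with Irf7 (1.05 and 0.19) and Ifit3 (1.42 and 0.56) farthest from it among the risers.

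The direct comparison of the genotypes asks whether the family depends on Zbtb24 in B cells. None of the 37 genes passed the test at any time with limma. Zbtb24, the deleted gene, did not pass it either, with adjusted p of 0.12, 0.0586 and 0.267 at 0 h, 24 h and 48 h. The absence of calls therefore does not show that the genotypes were equal. Among the 37, the count of genes at an unadjusted p under 0.05 was 4 before culture, 20 after a day and 2 at 48 h. Over all genes it was 313 of 15641, 2463 of 15104 and 1172 of 15210.

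Before culture the B-CKO values leaned upwards. At 0 h 34 of the 37 genes had a log2 fold change above 0, with a median of 0.17 against -0.001 for all genes, and 0 of 37 were called, as were 0% of the 15641 genes tested, of which 313 had an unadjusted p under 0.05. In 7 genes (Irf7, Irf9, Oas1a, Oas3, Eif2ak2, Rtp4 and Ifi27l2a) the 3 B-CKO libraries lay above the 3 control libraries, an arrangement that 1.92% of all genes had. Oas1a was 8.82, 9.08 and 9.33 FPKM in B-CKO cells and 5.57, 7.14 and 6.12 in control cells, a log2 fold change of 0.48 ± 0.12 (adjusted p = 1). Irf9 was 59.0, 54.2 and 48.1 FPKM against 43.9, 43.2 and 42.8 (0.30 ± 0.09, adjusted p = 1), so the lowest B-CKO library was above the highest control library. Ifi27l2a was 107, 108 and 98.1 FPKM against 80.4, 94.2 and 72.8 (0.34 ± 0.11, adjusted p = 1), and Rtp4 was 8.68, 6.89 and 7.16 against 5.72, 5.63 and 6.01 (0.33 ± 0.13, adjusted p = 1). B-CKO replicate 1 was the highest of the 6 libraries at 0 h for 24 of the 37 genes, while control replicate 3 was the lowest for 17. The median log2 fold change at 0 h was 0.07 without B-CKO replicate 1 and 0.30 without B-CKO replicate 3. Libraries of the same number deviated together at 0 h, and within each number the mean log2(FPKM + 1) of the 37 genes was higher in B-CKO cells, at 3.99 against 3.68, 3.81 against 3.64 and 3.62 against 3.53. With the replicate number as a block 0 of the 37 genes were called as well. The summed T cell markers were 167 to 199 FPKM in B-CKO cells and 213 to 222 in control cells at 0 h, a difference carried by Cd2 (means of 158 and 190) and Lck, while 5 of the 8 markers, among them Cd3d, Cd3e and Cd4, had higher means in B-CKO cells.

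At 24 h the lean was downwards. Of the 37 genes, 31 had a log2 fold change below 0, with a median of -0.12 against -0.005 for all genes, and 0 were called, while 0.0993% of 15104 genes were called in either direction. In 19 genes the 3 B-CKO libraries lay below the 3 control libraries, which held for 11.7% of all genes, and in 0 genes did they lie above, which held for 8.43%. Control replicate 1 was the highest of the 6 libraries for 21 of the 37 genes and B-CKO replicate 1 the lowest for 20, and leaving out each library in turn gave medians from -0.14 to -0.10.

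Irf7 differed most. It was 29.6, 28.9 and 32.9 FPKM in B-CKO cells and 48.6, 43.1 and 43.9 in control cells at 24 h, with no overlap, and the log2 fold change was -0.55 ± 0.06 (adjusted p = 0.0554). Ifit3 was 8.70, 11.9 and 10.7 FPKM against 15.5, 15.2 and 13.9 (-0.48 ± 0.10, adjusted p = 0.113). Oasl2 was 5.21, 5.39 and 5.91 FPKM against 7.25, 7.05 and 7.18 (-0.33 ± 0.06, adjusted p = 0.083). In all 3 the groups were apart, by a margin that was widest for Irf7. Mx1 was 9.15, 9.81 and 8.33 FPKM against 11.9, 11.2 and 11.3 (-0.31 ± 0.06, adjusted p = 0.102).

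Of the 8 genes that rose most with LPS, 2, Rtp4 and Dhx58, were among the 19 that lay apart at 24 h. Isg15, Oasl1, Ifih1 and Usp18 had log2 fold changes near 0 (-0.01, -0.01, 0.003 and 0.003), each with a sign that changed between settings. Ifit1 was 30.5, 33.1 and 34.1 FPKM in B-CKO cells against 33.5, 30.9 and 26.1 in control cells at 24 h, and Isg15 was 105, 113 and 120 against 120, 118 and 104. Ifi27l2a was 302, 312 and 322 FPKM against 381, 373 and 314 (-0.18 ± 0.07, adjusted p = 0.287). These 3 genes overlapped between the genotypes, as did Ifih1, Oasl1 and Usp18. Rtp4 had means of 23.8 and 29.2 FPKM and Dhx58 means of 45.5 and 51.3.

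The calls at 24 h depended on the settings. When the test was limited to the 9711 genes that averaged 1 FPKM or more, which kept all 37, 5 of the 37 were lower in B-CKO cells (Irf7, Ifit3, Rtp4, Mx1 and Oasl2), with Irf7 at an adjusted p of 0.00271, and 388 genes were called in all. Irf7 also passed with a pseudocount of 0.1 (adjusted p = 0.0308) and after rescaling to TPM (adjusted p = 0.0413). With the replicate number as a block 0 of the 37 were called. With the block and that minimum 9 were lower, with Sp100, Irf1, Stat2 and Oas2 added to those named. The calls over all genes under these settings, other than the rescaling to TPM, are given at the end. Over all 14 settings tried the adjusted p of Irf7 ranged from 0.00271 to 0.498 and its log2 fold change from -0.61 to -0.50. The summed immediate early genes were 155 to 171 FPKM in B-CKO cells and 176 to 182 in control cells at 24 h, and their part in the difference was not tested. The summed T cell markers were 29.6 to 33.4 and 38.5 to 42.7 FPKM, again through Cd2 (means of 20.9 and 27.1) and Lck. The other 6 T cell markers had higher means in B-CKO cells, all under 0.5 FPKM. The summed B cell markers were also lower, at 1925 to 1989 FPKM in B-CKO cells against 2064 to 2228 in control cells. The other marker sums overlapped between genotypes at 24 h, and the part of these lists was not tested.

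**Figure D4:**
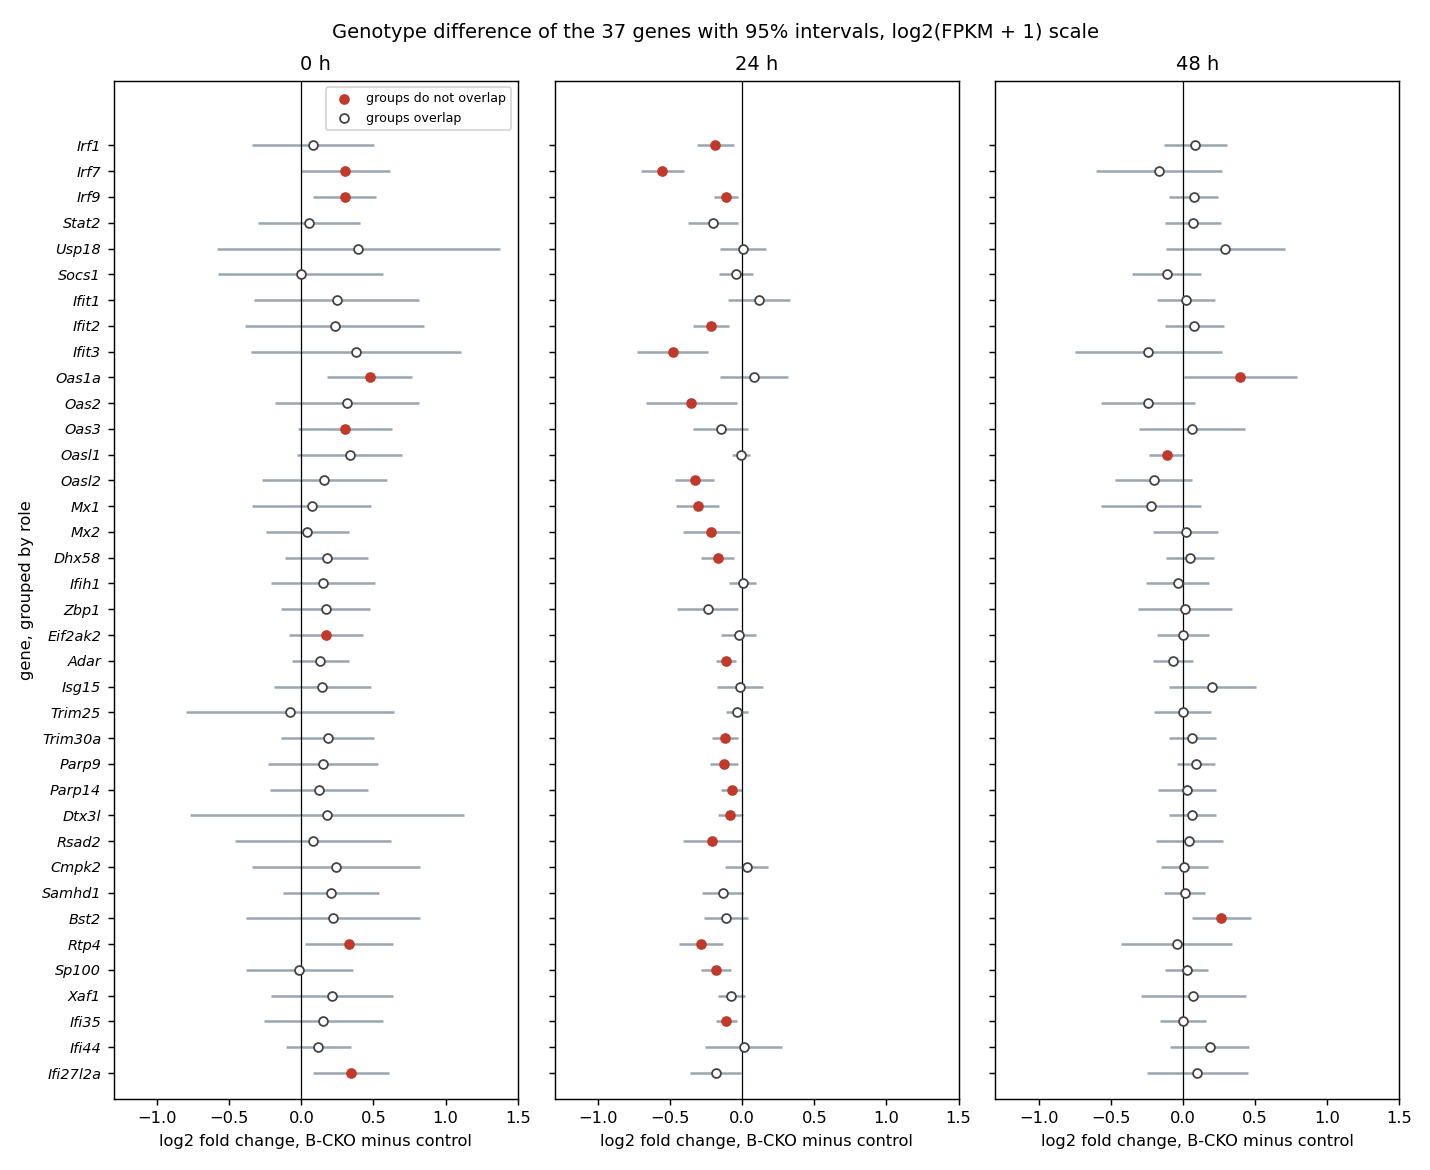
Log2 fold change of B-CKO minus control for the 37 genes at 0 h, 24 h and 48 h on the log2(FPKM + 1) scale, with 95% intervals from limma that are not adjusted for the number of genes. Filled red points are genes whose 3 B-CKO libraries lie beyond all 3 control libraries, 7 above at 0 h, 19 below at 24 h, and 2 above and 1 below at 48 h.

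At 48 h the values lay on both sides of 0. The median log2 fold change of the 37 genes was 0.03, 25 were above 0, and 0 were called, against 0.046% of 15210 genes. Bst2 and Oas1a were higher in B-CKO cells without overlap, against 4.89% of all genes, and Oasl1 was lower, against 6.24%. Bst2 was 68.5, 66.6 and 83.7 FPKM against 59.6, 62.2 and 58.8 (0.27 ± 0.09, adjusted p = 0.488), and without B-CKO replicate 3 the log2 fold change of Bst2 was 0.16. Oas1a was 23.1, 27.6 and 38.3 FPKM against 20.7, 22.9 and 21.8 (0.40 ± 0.16, adjusted p = 0.64), and without B-CKO replicate 3 the log2 fold change of Oas1a was 0.20. Oasl1 was 24.4, 25.1 and 27.2 FPKM against 28.4, 27.5 and 27.3 (-0.11 ± 0.05, adjusted p = 0.662), and Oasl2 was 3.14, 3.44 and 4.29 against 3.94, 4.35 and 4.63 (-0.20 ± 0.11, adjusted p = 0.748), with -0.13 for Oasl2 without B-CKO replicate 1. B-CKO replicate 3 was the highest of the 6 libraries at 48 h for 20 of the 37 genes and B-CKO replicate 1 the lowest for 20. Without B-CKO replicate 3 the median was -0.02 and 17 genes were above 0.

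The genotype difference in the change with time was tested as an interaction. From 0 h to 24 h the difference was below 0 in 36 of 37 genes, with a median of -0.29, and 0 were called, as were 0% of 16182 genes. At an unadjusted p under 0.05 there were 13 of the 37 and 467 of all genes. Irf7 had a difference of -0.86 ± 0.15 (adjusted p = 0.583) and Rtp4 one of -0.62 ± 0.12 (adjusted p = 0.994). From 24 h to 48 h the difference was above 0 in 32 of 37 genes, with a median of 0.19, and 0 were called, as were 0% of 15844 genes, with 8 of the 37 and 1158 of all genes at an unadjusted p under 0.05. Bst2 had a difference of 0.38 ± 0.12 (adjusted p = 0.597) and Ifit2 one of 0.29 ± 0.10 (adjusted p = 0.604). Each interaction is the later genotype difference minus the earlier one, so its sign count restates the leans given above. No sign count or median over all genes is set beside these, and no conclusion is drawn from them. Both interactions use the same 24 h libraries, so they are not separate evidence.

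Other genes of the pathway are given for control cells at 24 h, where 26.7% of all genes were called higher and 30.7% lower. Of the interferon ligands in the table, Ifnb1 was listed at 0 in all 3 control libraries at each time, and Ifna1, Ifna2, Ifna4 and Ifna5 at 0.1 FPKM or less in every library. Of 6 receptor genes, 5 fell, led by Ifngr1 (log2 fold change -1.39) and Ifnar1, the latter from 29.3, 28.6 and 38.8 FPKM to 13.4, 12.8 and 13.8. Of 9 JAK-STAT genes 3 rose and 5 fell, with Jak2 (-1.85) and the inhibitor Socs3 (-1.33) changing most. Most receptor transcripts and that of Stat2 thus fell over the same day in which 29 of the 37 genes rose.

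Of 19 genes that lead to interferon production 4 rose and 4 fell, with the Toll-like receptor 4 adaptors Ticam2 (1.59) and Ticam1 (1.28) changing most. Of the 6 other IRF genes 2 fell, Irf4 (-1.64) and Irf2 (-1.35). A wider list of 49 further interferon-stimulated genes had 22 that rose and 10 that fell, with a median log2 fold change of 0.28, and its greatest changes were in Ifitm2 (3.78), which blocks virus entry, and Cd274 (-3.29), which encodes PD-L1. Of 17 GBP and IRG GTPases, which act on vacuoles of intracellular pathogens and respond mostly to interferon-gamma, 8 rose and 4 fell, led by Ifi47 (2.43) and Gbp2 (2.29). Between genotypes, 0 genes of these lists passed limma's test at any time, with 7 at an unadjusted p under 0.05 before culture, 45 after a day and 12 at 48 h, of 109, 111 and 106 tested, each gene counted once, against 313 of 15641, 2463 of 15104 and 1172 of 15210 of all genes.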

How the data were processed

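Total splenic B cells of 3 control and 3 B-CKO mice were profiled at 0 h, 24 h and 48 h of LPS culture, 1 library each. The authors deposited FPKM values to 2 decimals for 16545 genes. Per the methods and the processing notes, reads were aligned to mm10 and quantified with tools that include Bowtie2 and RSEM (the notes also name BWA and DESeq2, without versions); FPKM is relative to the library total, and read counts were not used here, so DESeq2 was not run. Depth is therefore unknown in absolute terms. From the step size of the lowest values, relative depth was 0.875 to 0.923 at 0 h, 1.04 to 1.08 at 24 h and 1.01 to 1.08 at 48 h. Identifiers of 16512 genes matched RefSeq symbols and 33 did not.

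FPKM values were compared with limma 3.58.1 in R 4.3.3 (linear model with a trended empirical Bayes prior) on log2(FPKM + 1), over genes above 0 FPKM in any library of the fit, with only the groups compared in the fit, no block and a two-sided Benjamini-Hochberg adjusted p threshold of 0.05. Fold changes are on that scale, which understates low genes. The interactions used the 4 groups concerned. The procedure was tested on simulated data. The 37 genes and all lists were chosen with earlier results of these data known. Some genes of the marker and pathway lists are not reported here and were left out of their counts and sums. Fold changes are given for the 8 genes of greatest absolute change among those called in each control time comparison, for the 4 of smallest p in each genotype comparison, for the 2 of smallest p in each interaction, and for the 2 greatest changes called per pathway list. Promoters with the ISRE core among the 8 risers were printed.

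Replicate numbers are shared across groups. Deviations from group means over 9997 genes correlated at 0 h between control and B-CKO libraries of the same number (0.85, 0.47 and 0.79) and between B-CKO libraries at 24 h and 48 h (0.13, 0.18 and 0.12). Between genotypes the data, rather than the labels, are the source of this pairing. Within a genotype the titles carry 1 number through the 3 times and with 3 mice per genotype it is taken to stand for the mouse, so libraries of different times are not independent, and the time comparisons were also fitted with that block. Alternatives were a pseudocount of 0.1, a minimum mean of 1 FPKM, rescaling to TPM, median ratio scaling, the replicate block with and without that minimum, a single fit of all 18 libraries, and leaving out each library.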

Additional observations from a re-analysis of the deposited data

Results flagged for a closer look

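Groups of 3 libraries are too small for a test of outlying samples, and none was made. In 3 genes the genotype difference had opposite directions at 0 h and 24 h, with the libraries of the genotypes apart at both times. All 3 were higher in B-CKO cells at 0 h and lower at 24 h, an arrangement that 18 of 14563 genes (0.124%) had. For Irf7, the log2 fold change of B-CKO against control was 0.30 at 0 h, with all 3 B-CKO libraries higher, and -0.55 at 24 h, with all 3 lower. Irf9 had 0.30 at 0 h and -0.11 at 24 h, and Rtp4 had 0.33 at 0 h and -0.29 at 24 h, again with 3 of 3 libraries higher and then 3 of 3 lower. The test of the difference itself, limma's interaction over all genes, gave -0.86 for Irf7 (adjusted p = 0.583), -0.41 for Irf9 (adjusted p = 1) and -0.62 for Rtp4 (adjusted p = 0.994), so it did not pass for any of the 3. Over its 20 settings the adjusted p ranged from 0.291 to 1 for Irf7, from 0.206 to 1 for Irf9 and from 0.447 to 1 for Rtp4.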

How the results depend on the processing

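No count of calls, and no fold change of a gene chosen by the naming rule, changed direction under the alternatives run. Between genotypes at 24 h the values of Isg15, Oasl1, Ifih1 and Usp18, which lay near 0, changed sign (-0.08 to 0.03, -0.03 to 0.006, -0.03 to 0.03 and -0.05 to 0.05), and the median log2 fold change of the 37 genes at 48 h went from 0.03 to -0.02 without B-CKO replicate 3. Of the alternative values for counts, 342 were close to the reported one, 28 were larger and 17 smaller. Of those for single named genes, 638 stayed on the same side of the threshold and 10 passed it, all at 24 h between genotypes and in Irf7, Ifit3, Oasl2 or Mx1. Between genotypes at 0 h, 0 genes were called as reported, 2 with a minimum mean of 1 FPKM, 22 with that minimum and the replicate block, and 23 in the single fit of 18 libraries. At 24 h, 15 genes were called, against 46 with a pseudocount of 0.1, 388 with the minimum, 5 with the replicate block and 704 with both. The 37 genes then had 1, 5, 0 and 9 lower, and 1 after rescaling to TPM, against 0. The totals over all genes at 24 h are in either direction, of 9711 genes tested where the minimum applied. They therefore give no share of lower calls to set beside the 37 genes, and the total after rescaling to TPM is not given. At 48 h, 7 genes were called, against 29 with the minimum, 3 with the replicate block, 116 with both and 11 in the single fit. Of these 14.3% were higher in B-CKO cells, and 28.6% after median ratio scaling. For the change from 24 h to 48 h, 2 genes differed between genotypes with the block and the minimum. Fewer genes were tested with the minimum. The cause of the other shifts was not tested.

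Of the 37 genes, those higher at 48 h than at 24 h numbered 3 in control and 5 in B-CKO cells, and 1 and 2 in the single fit. Those lower at 24 h than at 0 h in B-CKO cells numbered 4, and 7 after rescaling to TPM, which moved the median of the 37 genes from 0.74 to 0.60. Leaving out each library in turn gave 0 to 1 genes called between genotypes at 0 h, 5 to 8 at 24 h, where each of the 6 libraries had this effect, and 0 to 6 at 48 h, with 0 without B-CKO replicate 1. It gave 2 to 4 of the 37 genes lower at 24 h in control and 4 to 7 in B-CKO cells, and 0 to 2 and 0 to 3 genes in the interactions.

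Same-numbered libraries correlated by 0.10, 0.20 and 0.09 between genotypes at 24 h, where each did so best with its own number, and by -0.04, 0.22 and 0.23 at 48 h. At both times the correlations were weaker than at 0 h, and whether the pairing of 0 h still held was not tested. The block was run as an alternative. The replicate block alone moved the calls between genotypes at 24 h and 48 h as given and no other count by over 1.5 times; with the minimum of 1 FPKM it also moved those at 0 h and in the change from 24 h to 48 h, as given. The limits are 3 mice per group, a low resolution at 0 h, no absolute depth and FPKM values that give shares of a library rather than RNA per cell.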

Other observations

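Among the 17 GBP and IRG GTPases, 15 had a log2 fold change above 0 in B-CKO against control cells at 48 h, with a median of 0.10, and 7 at 24 h. Of all genes tested at 48 h, 44.5% were above 0. Without B-CKO replicate 3 at 48 h, a comparison chosen after the values were seen, 11 of the 17 were above 0 with a median of 0.007, against 48.4% of all genes. Gbp2 and Gbp3, which encode guanylate-binding proteins, are named here after their values were seen. Gbp2 was 63.9, 73.7 and 76.4 FPKM in B-CKO cells at 48 h and 45.2, 47.0 and 43.7 in control cells, a log2 fold change of 0.64 (limma, adjusted p = 0.0697). At 24 h it was 50.2, 59.2 and 51.6 FPKM against 39.7, 45.4 and 35.6 (0.41, adjusted p = 0.131). Gbp3 was 61.0, 60.9 and 56.9 FPKM against 49.2, 49.4 and 45.3 at 48 h (0.31, adjusted p = 0.167) and 64.1, 65.4 and 63.5 against 56.6, 58.3 and 50.3 at 24 h (0.22, adjusted p = 0.134). In both genes the 3 B-CKO libraries lay above the 3 control libraries at 24 h and at 48 h, an arrangement that 8.43% and 4.89% of all genes had.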
